A study of Mus musculus with 10 samples.

Results

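The RNA of mouse lobular carcinoma cells that had shared a gel with mammary fibroblasts was compared with the RNA of the same tumor lines grown without fibroblasts. The comparison used 4 tumor libraries out of the 10 libraries in the series, chosen by their labels, and was made within each tumor line. Gels 4 and 5 had held tumor cells with fibroblasts, and gels 2 and 3 had held tumor cells alone. Line 13-MCB-17 gave the libraries of gels 2 and 4, and line 10-SJK-221 gave those of gels 3 and 5. The 4 libraries of fibroblasts sorted from gels 4 and 5 were used to estimate how much fibroblast RNA the tumor libraries could hold.

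The series had been made to follow 2 kinds of normal fibroblast (NF), without and with the surface protein CD26, in the presence and absence of tumor cells. NFs were taken from mammary glands of mTmG mice aged 8 weeks, whose cells are red (Tomato) until Cre recombinase turns them green (GFP). CD26+ NFs were made green by an adenovirus carrying Cre and mixed 1 to 1 with red CD26− NFs in gels of collagen and basement membrane extract (BME). The tumor cells came from a genetically engineered model of invasive lobular carcinoma, in which Cre under the Wap promoter deletes floxed Cdh1 in mammary epithelium. Both cultures held cells of this genotype, so the deletion was shared by every library compared. All gels were grown for 7 days and dissolved with collagenase. The tumor cells were then sorted as cells that were neither red nor green, a gate that an uncolored NF could also enter.

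Lobular carcinoma is a form of breast cancer whose cells have lost E-cadherin, the product of Cdh1 and the main adhesion protein between epithelial cells, and that grows as loosely joined cells within a collagen-rich stroma. Fibroblasts build that stroma, and secrete growth factors, proteases and matrix proteins that epithelial cells sense through integrins and cytokine receptors.

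The 4 tumor libraries held 15717569 to 18408940 counts, and levels below are given as CPM, counts scaled to the library total. An observed 0 allows up to 3 counts, which is 0.163 to 0.191 CPM in these libraries and covers counting error only. All 10 epithelial markers checked were above 1 CPM in every tumor library, and their summed level was 3602 and 4875 CPM alone and 3678 and 4531 CPM in co-culture (13-MCB-17 first, as in every pair below). The 10 fibroblast markers summed to 75.9 and 41.7 CPM alone and to 222 and 126 CPM in co-culture, against 27938 to 46256 CPM in the NFs of the same gels. Endothelial markers summed to at most 4.02 CPM and adipocyte markers to at most 0.509 CPM in any tumor library. Immune markers summed to 301 and 101 CPM alone and 92.2 and 48 CPM in co-culture, most of it from Cd68, a lysosomal protein best known from macrophages, which had 299 and 93.1 CPM alone and 80.5 and 34.8 CPM in co-culture. The 6 immune markers did not move together: edgeR called Cd68 lower (log2 fold change −1.69, adjusted p = 0.000147) and Csf1r higher (1.61, adjusted p = 0.0168). Their part in the results below was not tested. In bulk RNA, fewer cells of a type and less RNA per cell cannot be told apart.

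With line and culture as terms, 13197 genes were tested with edgeR's quasi-likelihood test and 22.3% of them differed between cultures at an adjusted p-value under 0.05, 10.8% being higher and 11.5% lower in co-cultured tumor cells. These shares are the background against which each group of genes below is read. The median log2 fold change over all genes tested was 0.01. Of 2942 genes called, 2938 moved the same way in both lines, against 9882 of 13197 genes tested (74.9%). With line as a term, the spread is the disagreement between lines, so a call already asks for agreement. Each line had 1 gel per culture, so the test rests on 1 residual degree of freedom and on spread shared across genes, and p-values measure the spread between these gels only. Without line as a term, edgeR called 0 genes, with 2207 at an unadjusted p under 0.05. A test of whether the lines responded differently called 0 of 13197 genes (0% of those tested), with 349 genes at an unadjusted p under 0.05 and a lowest adjusted p of 0.275. Its spread came from the NF libraries, since the tumor libraries leave none in that fit. It therefore does not measure spread between tumor gels.

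**Figure D1:**
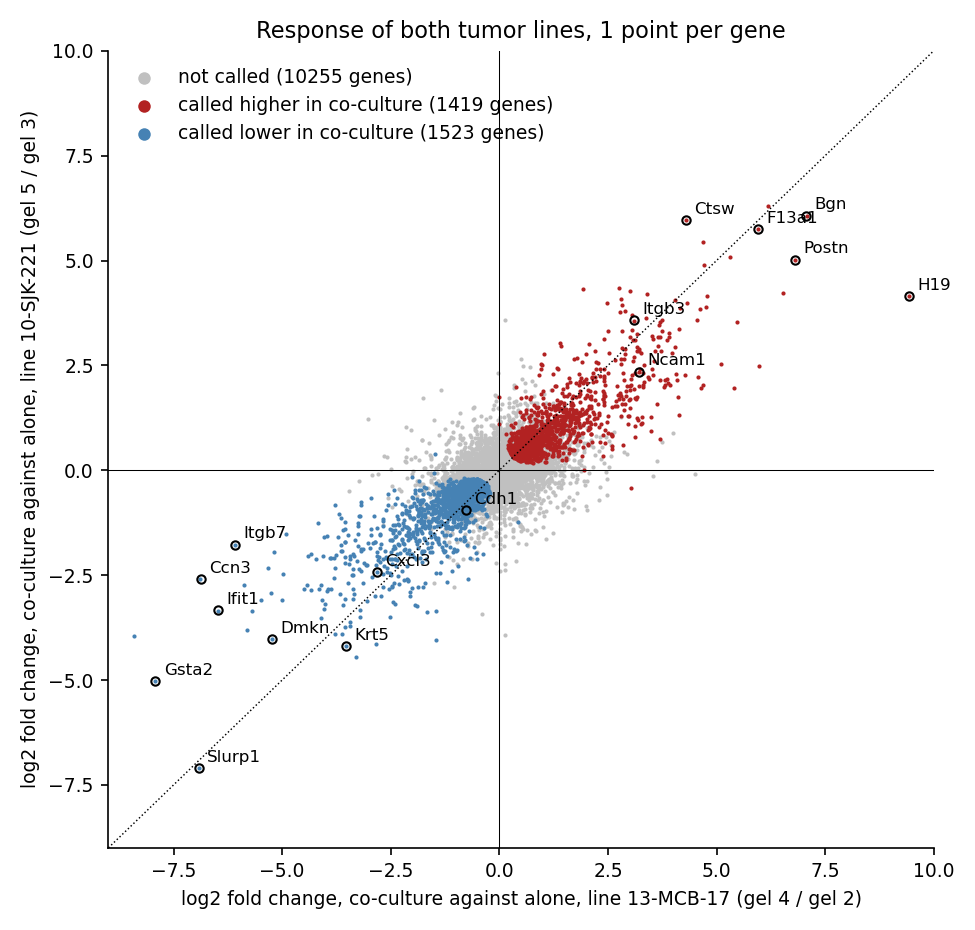
Log2 fold change of each of 13197 genes between co-cultured and lone tumor cells in line 13-MCB-17 (horizontal axis) and line 10-SJK-221 (vertical axis). Red and blue points are the genes called higher (1419) and lower (1523), gray points are those not called, circles mark genes named in the text, and the dotted line marks an equal response in both lines.

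Before single genes were read, the rises were set against the RNA that NFs could have brought along. The share of NF RNA in a tumor library was estimated from 54 genes with at least 200 CPM in NFs and at most 0.5 CPM in both lone tumor libraries, as the median ratio of their level in the tumor library to that in the NFs of the same gel. It was 0.054% in gel 4 and 0.0494% in gel 5. Of the 1419 genes that rose, 1394 (98.2%) had an estimate below 20% of their rise in both gels, and 9 had an estimate of 20% or more in both. Of the 54 marker genes, 10 were among the rises, and without these 1394 of 1409 rises (98.9%) were below 20% in both gels. With the highest single marker ratio of each gel (1.10% and 0.547%) in place of the median, 1340 genes (94.4%) stayed below 20% in both gels and 34 reached it in both.

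The 9 genes at 20% or more in both gels were Col1a2, Col5a2, Dcn, Fbn1, Fstl1, Lox, Pdgfrb, Serping1 and Thbs2, which are known as products of stromal cells. All but Col1a2 and Serping1, 7 of the 9, were among the 54 genes whose median ratio set the share, so their estimate follows from how the share was built and is no result about them. Col1a2 was not called once the estimated NF counts were subtracted (adjusted p = 0.0787), and Dcn was not called by DESeq2 (0.474). Their levels in co-cultured tumor cells stayed low, with means from 0.653 CPM for Fstl1 to 8.11 CPM for Col1a2. Thbs2, thrombospondin 2, had 0 counts in both lone libraries and 0.735 and 1.54 CPM in co-culture, and its estimate, set by its own ratio against the median marker, was 244% and 106% of the rise. Pdgfrb, a receptor that marks fibroblasts, had 0 counts alone and 1.19 and 0.97 CPM in co-culture, with an estimate, set in the same way, of 31.6% and 51.2%. No gene with at least 5 CPM in co-culture had an estimate of 50% or more of its rise in both gels.

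**Figure D2:**
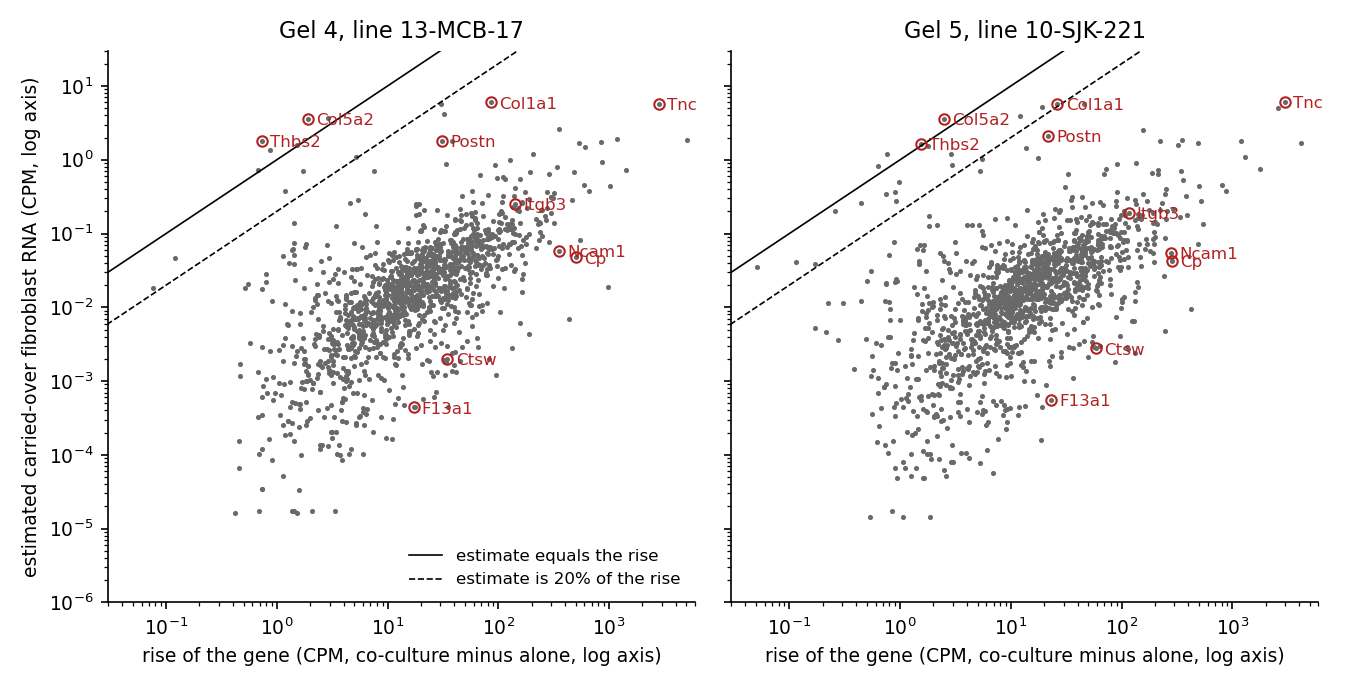
Estimated carried-over fibroblast RNA (vertical axis, CPM, log scale) against the rise in co-culture (horizontal axis, CPM, log scale) for each gene called higher, in gel 4 (left) and gel 5 (right); genes with a negative rise or an estimate of 0 in a gel are not drawn. Thbs2 and Col5a2 lie on or above the solid line, where the estimate equals the rise, while F13a1, Ctsw, Cp and Ncam1 lie far below the dashed line at 20%.

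Of 18 fibroblast genes tested, 15 were called higher in co-cultured tumor cells and 0 lower. The filter on low counts asked for about 0.568 CPM in at least 2 libraries, and 6 of the 18 (Col3a1, Col5a2, Fbn1, Dcn, Lox and Pdgfrb) were under it in both lone libraries, so they were tested only because they were high in co-culture. Here and below, a culture counts as reaching the filter when any of its libraries did. Such counts can still hold genes that passed it only through the culture where they were high. Of the 12 that reached it in both cultures, 9 were called higher. A further 6 of the 24 listed, Lum, Thy1, Fap, Twist2, Prrx1 and Dpt, did not pass the filter on low counts. The estimate of carried-over RNA took very different parts of these rises. Col6a1, a chain of the collagen VI microfibrils, rose from 32.6 and 24.4 CPM to 239 and 245 CPM (log2 fold change 3.07, SE 0.139, adjusted p = 1.56e-05), and the estimate was 0.585% and 0.813% of the rise. Postn, periostin, a matrix protein of remodeled stroma, rose from 0.163 and 0.573 CPM to 31.3 and 22.4 CPM (log2 fold change 6.19), with an estimate of 5.76% and 9.65%. Postn was under the filter in lone 13-MCB-17 cells, so it passed only through co-culture. Col3a1, the collagen III chain, went from 0.326 and 0.127 CPM to 32.5 and 19.4 CPM, with an estimate of 13.1% and 27.2%, and is itself one of the 54 markers. For Col1a1, a collagen I chain, the estimate was 6.97% and 21.8% of the rise. All 4 genes were separated between cultures, with each co-cultured library above both lone ones.

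By the rule used for naming, 12 genes had the highest fold changes among those with an estimate below 20% of the rise in both gels. They were H19, Bgn, F13a1, Postn, Gipr, Cdh10, Ctsw, Klhl30, Tnn, Tnnt3, Papln and Gm28231. H19, F13a1, Gipr and Papln, 4 of the 12, were under the filter in both lone libraries and so were tested only because they were high in co-culture. Bgn, Postn, Cdh10, Klhl30, Tnn and Tnnt3 reached it in the lone library of a line but not in that of the other. As the filter asks for 2 libraries, they too passed only through co-culture. The levels of all these genes are given without a p-value of the fit. Bgn (chromosome X, 73483602 to 73495933), the proteoglycan biglycan, had 0.109 and 0.573 CPM alone and 30.2 and 46.7 CPM in co-culture (log2 fold change 6.84). Its estimate, 19.2% and 12.5% of the rise, was just inside the limit in gel 4. F13a1 (chromosome 13, 36867178 to 37050244), the catalytic subunit of the clotting transglutaminase factor XIII, had 0.163 and 0.318 CPM alone and 17.3 and 23.6 CPM in co-culture. NFs of the same gels had 0.606 to 1.21 CPM of F13a1, less than the tumor cells did. Epithelial markers summed to 107 to 285 CPM in co-cultured NF libraries and to 0.435 and 0.912 CPM in NFs without tumor cells, and the part of tumor RNA in the NF levels given here and below was not tested.

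Ctsw, the protease cathepsin W known from cytotoxic lymphocytes, rose from 1.68 and 0.827 CPM to 36.3 and 59.7 CPM (log2 fold change 5.14, SE 0.325, adjusted p = 5.05e-05) and had 3.51 to 5.66 CPM in co-cultured NFs. Cdh10, a cadherin best known from neurons, rose from 0.163 and 0.763 CPM to 26 and 16.7 CPM (log2 fold change 5.52), with 0.848 to 3.53 CPM in the NFs. Each of these genes therefore had a higher level in co-cultured tumor cells than in the fibroblasts next to them. Gipr, the receptor of the gut hormone GIP, went from 3 and 1 counts alone to 11 and 6.05 CPM in co-culture, and had 6.62 to 21.1 CPM in co-cultured NFs but at most 0.0621 CPM in NFs grown without tumor cells.

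H19, an imprinted non-coding RNA, had 0 counts in both lone libraries and 79.1 and 2 CPM in co-culture, most of it in the library of gel 4. DESeq2 did not call H19 (adjusted p = 0.153). Klhl30 had 0.978 and 0.509 CPM alone and 27.1 and 9.01 CPM in co-culture. Tnnt3, a troponin of fast skeletal muscle, went from 0.272 and 0.573 CPM to 13.3 and 3.94 CPM, and Papln, the matrix protein papilin, from 0.38 and 0.191 CPM to 6.62 and 3.59 CPM.

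Receptors for matrix changed in both directions. Of 14 integrins and integrin activators tested, 5 were called higher and 2 lower. Itgb3, the beta 3 integrin chain that pairs with alpha V to bind vitronectin and other matrix proteins, rose from 17.7 and 10.4 CPM to 158 and 126 CPM (log2 fold change 3.33, SE 0.137, adjusted p = 1.56e-05). Its level also differed between NFs with and without tumor cells, from 332 to 521 CPM against 13.2 and 13.5 CPM, and the estimate of carried-over RNA was 0.181% and 0.166% of the rise in tumor cells. Fermt1, kindlin-1, which activates integrins in epithelium, rose from 26.8 and 35.6 CPM to 122 and 169 CPM (2.19, SE 0.103, adjusted p = 1.56e-05). Itgb2 and Itgb7, integrin chains best known from leukocytes, fell. Itgb2 went from 29.4 and 34.7 CPM to 5.26 and 6.1 CPM (−2.52, SE 0.159, adjusted p = 5.05e-05). Itgb7 went from 90.3 and 7.63 CPM to 1.24 and 2.17 CPM (−4.28, SE 0.779, adjusted p = 0.00591), and DESeq2 did not call it (adjusted p = 0.0916).

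Among 19 laminin and basement membrane genes tested, 8 were called lower and 3 higher. Lama4, also one of the 54 markers of carry-over, and Lamc3, which DESeq2 did not call (adjusted p = 0.519), were tested only because 1 culture was high. Of the 17 that reached the filter in both cultures, 7 were called lower and 2 higher. Col17a1, the collagen XVII of hemidesmosomes, which fix epithelium to the basement membrane, fell from 45.5 and 41.9 CPM to 4.24 and 9.7 CPM (log2 fold change −2.74, SE 0.278, adjusted p = 0.000437). Itga6, its integrin partner chain, fell from 689 and 684 CPM to 322 and 424 CPM (−0.92, SE 0.137, adjusted p = 0.00239). The basement membrane collagen genes Col4a1 and Col4a2 also fell, by 0.84 and 1.35 on the log2 scale. Col7a1, which forms the anchoring fibrils under hemidesmosomes, rose from 263 and 143 CPM to 539 and 432 CPM (1.29, SE 0.15, adjusted p = 0.000805). Itgb4, the other integrin chain of hemidesmosomes, had 568 and 721 CPM alone and 482 and 579 CPM in co-culture and did not pass the test (adjusted p = 0.0976).

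Matricellular proteins, which sit in the matrix and signal to cells more than they carry load, were called higher in 10 of 17 cases and lower in 3. Thbs2 and Ccn3 had been tested only because 1 culture was high, and of the 15 that reached the filter in both cultures, 9 were called higher and 2 lower. Tnn, tenascin-W, rose from 0.761 and 0.318 CPM to 14.5 and 7.19 CPM (log2 fold change 4.29), while the NFs of the same gels had 0.748 to 1.93 CPM. Tnn was under the filter in lone 10-SJK-221 cells, so it passed only through co-culture. Ccn4, a secreted protein first known as a Wnt target, rose from 3.15 and 3.82 CPM to 58.6 and 40.8 CPM (3.80, SE 0.207, adjusted p = 2.79e-05). Ccn2, connective tissue growth factor, rose from 28 and 29.2 CPM to 166 and 204 CPM (2.66, SE 0.114, adjusted p = 1.56e-05). The related Ccn3 moved the other way, from 71.5 and 2.29 CPM to 0.509 and 0.285 CPM, with lone 13-MCB-17 cells far above the other 3 libraries, and was tested only because it was high in lone cells. Ccn1, another member of the family, had 1008 and 1270.0 CPM alone and 994 and 1458 CPM in co-culture (adjusted p = 0.782).

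Among 20 metalloproteinases and their inhibitors tested, 8 were called higher and 4 lower. Mmp19 rose from 21 and 16.5 CPM to 97.3 and 84.2 CPM (log2 fold change 2.25, SE 0.111, adjusted p = 1.64e-05). Mmp13, a collagenase, was the most abundant of those that rose in CPM (which does not correct for transcript length), at 1261 and 524 CPM alone and 2114 and 1714 CPM in co-culture (1.20, SE 0.22, adjusted p = 0.00613, but 0.0952 with DESeq2 and 0.0711 in an edgeR fit over all 10 libraries). Of the inhibitors, Timp1 rose from 42.6 and 30.7 CPM to 139.7 and 103 CPM (1.70, SE 0.1, adjusted p = 3.86e-05), whereas Timp3 fell from 107 and 69.8 CPM to 15.5 and 18 CPM (−2.40, SE 0.188, adjusted p = 0.00014). Plaur, the receptor of the plasminogen activator urokinase, had 187 and 79.8 CPM alone and 58 and 61.2 CPM in co-culture (−1.07, SE 0.258, adjusted p = 0.0197, 0.379 with DESeq2).

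**Figure D3:**
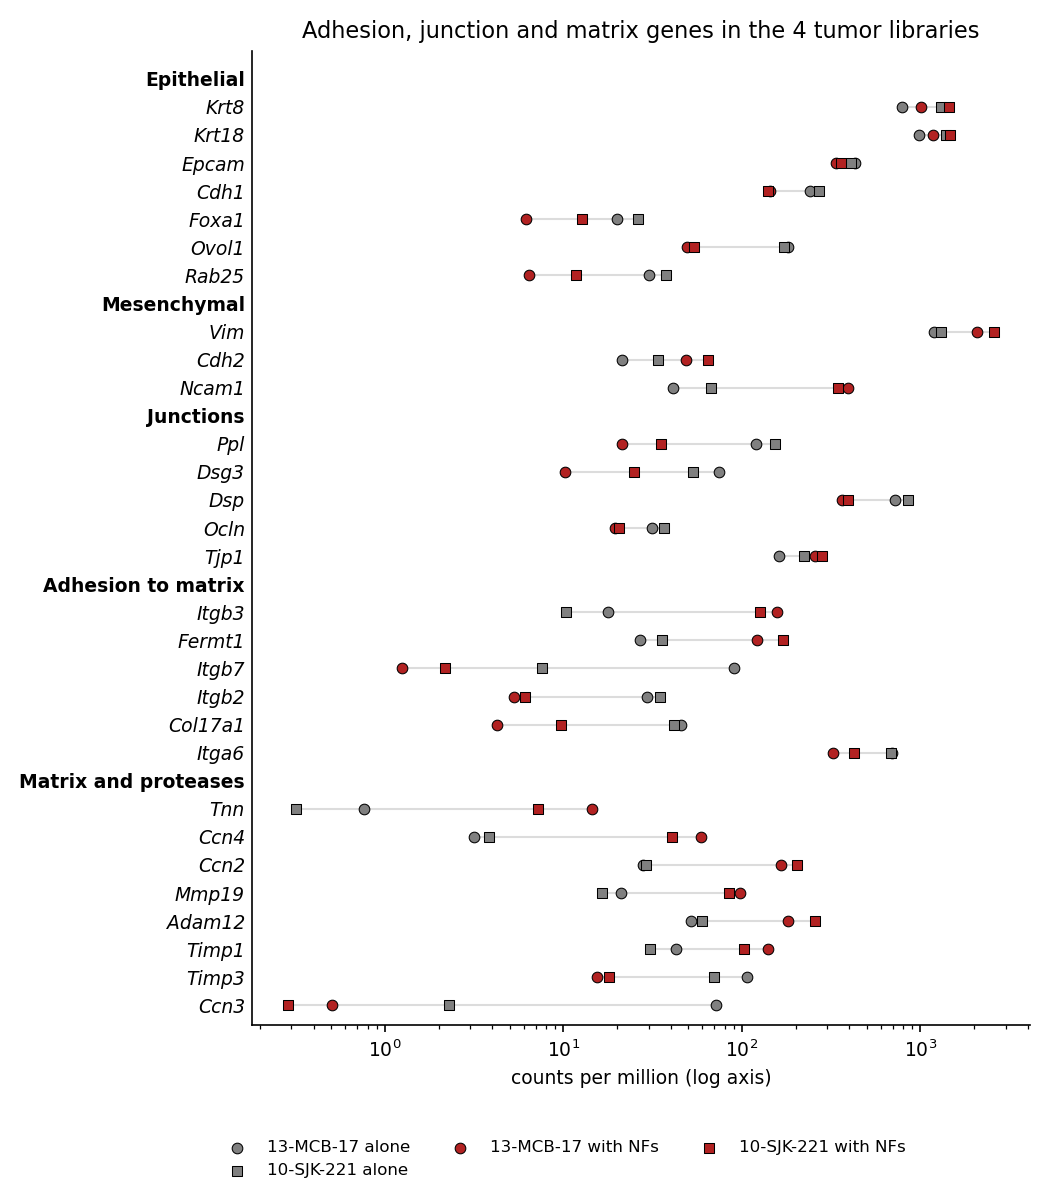
Level of adhesion, junction and matrix genes in each tumor library (horizontal axis, CPM, log scale; 1 point per library, no error bars because each line has 1 library per culture). Circles are line 13-MCB-17 and squares line 10-SJK-221, gray alone and red with NFs; keratins overlap between cultures, while red and gray are separated for Itgb3, Fermt1, Ncam1, Col17a1 and Ccn4.

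Epithelial identity genes were partly lower. Of 23 luminal epithelial genes tested, 13 were called lower and 0 higher. Of the 22 that reached the filter in both cultures, 12 were called lower. The abundant keratins did not pass the test: Krt8 had 789 and 1301 CPM alone and 1001 and 1438 CPM in co-culture (adjusted p = 0.27), and Krt18 had 981 and 1392 CPM alone and 1172 and 1468 CPM in co-culture (adjusted p = 0.488). The cell surface protein Epcam, at 432 and 409 CPM alone and 335 and 358 CPM in co-culture, did not pass either (adjusted p = 0.0927). Among the genes that fell, Ovol1, which represses mesenchymal genes in epithelium, fell from 181 and 172 CPM to 49.3 and 53.6 CPM (log2 fold change −1.80, SE 0.107, adjusted p = 3.86e-05). Rab25, a GTPase of epithelial recycling endosomes, fell from 30 and 37.4 CPM to 6.39 and 11.7 CPM (−1.96, SE 0.181, adjusted p = 0.000293). Foxa1, a pioneer factor of luminal cells, fell from 19.9 and 26.2 CPM to 6.16 and 12.7 CPM (−1.37, SE 0.196, adjusted p = 0.002).

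Junction genes were also lower. Of 19 desmosome and tight junction genes tested, 12 were called lower and 1, the tight junction scaffold Tjp1, higher (not called in the fit over all 10 libraries, adjusted p = 0.233). Ppl, the desmosomal linker periplakin, fell from 119.9 and 153 CPM to 21.4 and 35.4 CPM (log2 fold change −2.32, SE 0.125, adjusted p = 2.67e-05). Dsp, desmoplakin, fell from 717 and 847 CPM to 364 and 393 CPM (−1.07, SE 0.117, adjusted p = 0.000595). Reads of the floxed gene Cdh1 were also fewer in co-culture (log2 fold change −0.86, SE 0.106), but a count over the whole gene cannot tell reads of deleted from those of retained exons. Cdh2, N-cadherin, rose from 21.3 and 34 CPM to 48.3 and 64.3 CPM (1.02, SE 0.117, adjusted p = 0.000757). The catenin genes Ctnna1, Ctnnb1, Ctnnd1 and Jup did not pass the test.

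The mesenchymal list did not move as 1 group: 4 of 18 genes tested were called higher and 2 lower, a median log2 fold change of 0.30. Ncam1, a neural cell adhesion molecule, rose from 41 and 67 CPM to 392 and 345 CPM (log2 fold change 2.78, SE 0.195, adjusted p = 8.66e-05), above the 87.6 to 132 CPM of the NFs in the same gels. Vim, vimentin, rose from 1195 and 1297 CPM to 2065 and 2594 CPM (0.87, SE 0.14, adjusted p = 0.00341). Snai1 was called higher by 0.49 on the log2 scale, but not by DESeq2 (adjusted p = 0.0845) or in the fit over all 10 libraries (0.0674), while Zeb1, Zeb2, Snai2 and Twist1, the other classic repressors of epithelial genes, did not pass the test.

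Squamous differentiation genes make the outer layers of skin and appear in mammary tumors when cells turn squamous. Of 30 listed, 17 did not pass the filter on low counts, and of the 13 tested, 11 were called lower and 0 higher. Slurp1, Sprr1b and Krtdap were tested only because they were high in lone cells, and of the 10 that reached the filter in both cultures, 8 were called lower. Dmkn, the secreted epidermal protein dermokine, fell from 59.9 and 12 CPM to 1.53 and 0.627 CPM (log2 fold change −4.99, SE 0.261, adjusted p = 2.37e-05). Krt16, a stress keratin, fell from 175 and 104 CPM to 10.0 and 14.7 CPM (−3.49, SE 0.267, adjusted p = 0.00013), and Lypd3, a surface protein of suprabasal cells, from 108 and 116 CPM to 33.7 and 37.2 CPM (−1.69, SE 0.101, adjusted p = 3.86e-05). Slurp1, a secreted peptide of skin, had 20 and 16.1 CPM alone and 1 and 0 counts in co-culture. Sprr1a and Tgm1 did not pass the test. The basal keratin Krt5, also tested only because it was high in lone cells, had 5 and 6.17 CPM alone and 0.339 and 0.228 CPM in co-culture.

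Cytokine genes were lower in co-cultured tumor cells. Of 21 tested, 15 were called lower and 2 higher, with a median log2 fold change of −1.20. The neutrophil-attracting chemokines Cxcl1, Cxcl3 and Cxcl5 were among the falls, each with both co-cultured libraries below both lone ones. Cxcl5 fell from 851 and 608 CPM to 206 and 163 CPM (log2 fold change −2.0, SE 0.119, adjusted p = 3.86e-05), Cxcl1 from 789.7 and 550.0 CPM to 164 and 201 CPM (−1.89, SE 0.19, adjusted p = 0.000421) and Cxcl3 from 191 and 117 CPM to 27.8 and 21.8 CPM (−2.63, SE 0.126, adjusted p = 1.56e-05). Csf3, the granulocyte growth factor G-CSF, fell from 392 and 215 CPM to 141 and 76.1 CPM (−1.52, SE 0.104, adjusted p = 7.63e-05), and Il1rn, the natural antagonist of interleukin 1, from 32.2 and 29.4 CPM to 3.85 and 6.1 CPM (−2.67, SE 0.218, adjusted p = 0.000159). Il11, a fibrosis-linked cytokine, rose from 68.8 and 40.1 CPM to 127 and 83.7 CPM (0.94, SE 0.104, adjusted p = 0.00062). Of 18 genes of NF-kB and its feedback loop, 4 were called lower and 3 higher, and Nfkb1, Rela, Nfkbia and Tnfaip3 did not pass the test. Osmr, the receptor of oncostatin M, rose from 26.6 and 35.1 CPM to 149 and 122 CPM (2.11, SE 0.157, adjusted p = 0.000111).

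Interferon-stimulated genes, the antiviral program switched on by the factor ISGF3, were lower on a subset. Of 26 tested, 10 were called lower and 2 higher. Of these 10, 5 (Ifit1, Ifit3, Oas1a, Oas2 and Rtp4) were tested only because they were high in lone cells, and of the 21 that reached the filter in both cultures, 5 were called lower. Ifit1, which binds foreign RNA, had 14.6 and 2.8 CPM alone and 1 and 3 counts in co-culture. Oas2, a sensor of double-stranded RNA, had 21.1 and 2.48 CPM alone and 0.452 and 0.228 CPM in co-culture. Isg15, a ubiquitin-like protein, fell from 18.1 and 7.13 CPM to 5.66 and 4.05 CPM (log2 fold change −1.31, SE 0.249, adjusted p = 0.00709). Lone 13-MCB-17 cells had the highest level of each of these genes. Stat2 and Irf9, which are part of ISGF3 itself, did not pass the test. Gbp2, a guanylate-binding protein induced by interferon gamma, rose from 41.1 and 41.5 CPM to 105 and 95.5 CPM (1.25, SE 0.102, adjusted p = 0.000158).

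The promoters of interferon genes that fell were searched for the interferon-stimulated response element, taken as GAAA, any 2 bases and GAAA again, on both strands, in the 250 bases before the start site. RefSeq sequences of GRCm38.p6 were found for 7 of the 10 genes, and 5 of the 7, Ifit1, Ifit3, Isg15, Oas1a and Rsad2, held a match. Of 27025 genes with a promoter sequence, 3.46% did, and of the interferon genes tested but not called lower, 4 of 11 did. Matches within 1 promoter can overlap each other. A match is a description of the letters and not a test of binding. The promoters of Ifit1, Rsad2 and Isg15 are shown because they had the largest, the middle and the smallest fall among the 5. They read 5′ to 3′ on the gene's strand, up to the base before the start, with the matches in capitals. The Ifit1 stretch is chr19:34640639-34640888 (plus strand), that of Rsad2 is chr12:26456453-26456702 (minus strand) and that of Isg15 is chr4:156200819-156201068 (minus strand).
Ifit1: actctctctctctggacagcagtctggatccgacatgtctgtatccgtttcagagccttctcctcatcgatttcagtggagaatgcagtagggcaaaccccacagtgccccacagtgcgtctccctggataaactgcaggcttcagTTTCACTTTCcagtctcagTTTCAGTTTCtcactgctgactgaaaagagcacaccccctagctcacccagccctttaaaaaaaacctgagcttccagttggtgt
Rsad2: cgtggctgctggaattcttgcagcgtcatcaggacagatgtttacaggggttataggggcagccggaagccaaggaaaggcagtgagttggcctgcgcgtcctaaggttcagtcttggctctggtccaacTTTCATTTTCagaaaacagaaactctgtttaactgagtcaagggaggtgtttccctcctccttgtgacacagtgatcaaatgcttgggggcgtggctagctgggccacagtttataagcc
Isg15: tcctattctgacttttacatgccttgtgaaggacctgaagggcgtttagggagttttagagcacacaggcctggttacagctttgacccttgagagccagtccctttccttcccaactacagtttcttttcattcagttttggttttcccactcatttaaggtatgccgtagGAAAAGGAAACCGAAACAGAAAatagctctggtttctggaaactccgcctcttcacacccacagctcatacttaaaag

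Genes of glutathione and of its regulator NRF2, the factor that answers oxidative and electrophilic stress, also fell. Of 25 tested, 18 were called lower and 1, Gstt1, higher (Gstt1 was not called in the fit over all 10 libraries, adjusted p = 0.0881). Of the 23 that reached the filter in both cultures, 16 were called lower. Slc7a11, the cystine importer that supplies glutathione synthesis, fell from 782 and 196 CPM to 54 and 46.1 CPM (log2 fold change −3.01, SE 0.36, adjusted p = 0.000908). Gclc and Gclm, the subunits of the enzyme that commits cysteine to glutathione, fell together. Gclc had 204 and 129 CPM alone and 84.6 and 73.2 CPM in co-culture (−1.07, SE 0.129, adjusted p = 0.000918), and Gclm had 86.1 and 30.4 CPM alone and 9.33 and 14.3 CPM in co-culture (−2.17, SE 0.409, adjusted p = 0.00681, 0.139 with DESeq2). Gsta4, a transferase for lipid peroxidation products, fell from 626 and 177 CPM to 29.6 and 26.9 CPM (−3.60, SE 0.347, adjusted p = 0.000358). Lone 13-MCB-17 cells were again the highest library for each.

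Gsta1 and Gsta2 are close copies of each other, so their counts are uncertain, and both were tested only because they were high in lone cells. Gsta1 had 37.6 and 4.33 CPM alone and 0 and 3 counts in co-culture, with lone 13-MCB-17 cells far above the other 3 libraries. Hmox1, a heme-degrading enzyme that is a common NRF2 readout, did not pass the test, with 367 and 404 CPM alone and 418 and 312 CPM in co-culture (adjusted p = 0.609). Nqo1, a quinone reductase, had 4.02 and 1.15 CPM in lone tumor cells and 0.622 and 0.285 CPM in co-culture (log2 fold change −2.47). Nqo1 was under the filter in 1 co-cultured tumor library, so it passed only through lone cells. DESeq2 did not call it (adjusted p = 0.0666). Co-cultured NFs had 160.4 to 205 CPM of Nqo1. Aldh3a1, an aldehyde dehydrogenase of the xenobiotic list, fell from 371 and 232 CPM to 26 and 54.9 CPM (−2.96, SE 0.351, adjusted p = 0.000877). Of the 12 genes of that list tested, 2 were called lower and 1 higher.

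The antioxidant response element that NRF2 binds was searched in the same way, as TGAC, any 3 bases and GC. RefSeq promoters were found for 16 of the 18 genes that fell, and 3 of them, G6pdx, Gclm and Txnrd1, held a match, against 11.5% of all genes with a promoter sequence and 1 of 5 of the list's other tested genes. Absence of a match says only that these letters are not in this window. The promoter of Gclm, chr3:122245307-122245556 (plus strand), and that of Txnrd1, chr10:82858956-82859205 (plus strand), are shown because these genes join the list's central enzymes, glutathione synthesis and thioredoxin reduction.
Gclm: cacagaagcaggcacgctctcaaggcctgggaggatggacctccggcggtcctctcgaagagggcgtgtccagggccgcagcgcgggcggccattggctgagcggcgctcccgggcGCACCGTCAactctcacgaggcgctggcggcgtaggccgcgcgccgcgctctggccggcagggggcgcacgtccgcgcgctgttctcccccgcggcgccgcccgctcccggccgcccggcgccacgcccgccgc
Txnrd1: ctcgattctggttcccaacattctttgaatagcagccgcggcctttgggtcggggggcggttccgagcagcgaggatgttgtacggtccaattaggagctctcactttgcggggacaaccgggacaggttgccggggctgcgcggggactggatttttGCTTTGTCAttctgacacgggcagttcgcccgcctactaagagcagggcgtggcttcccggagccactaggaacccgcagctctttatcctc

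**Figure D4:**
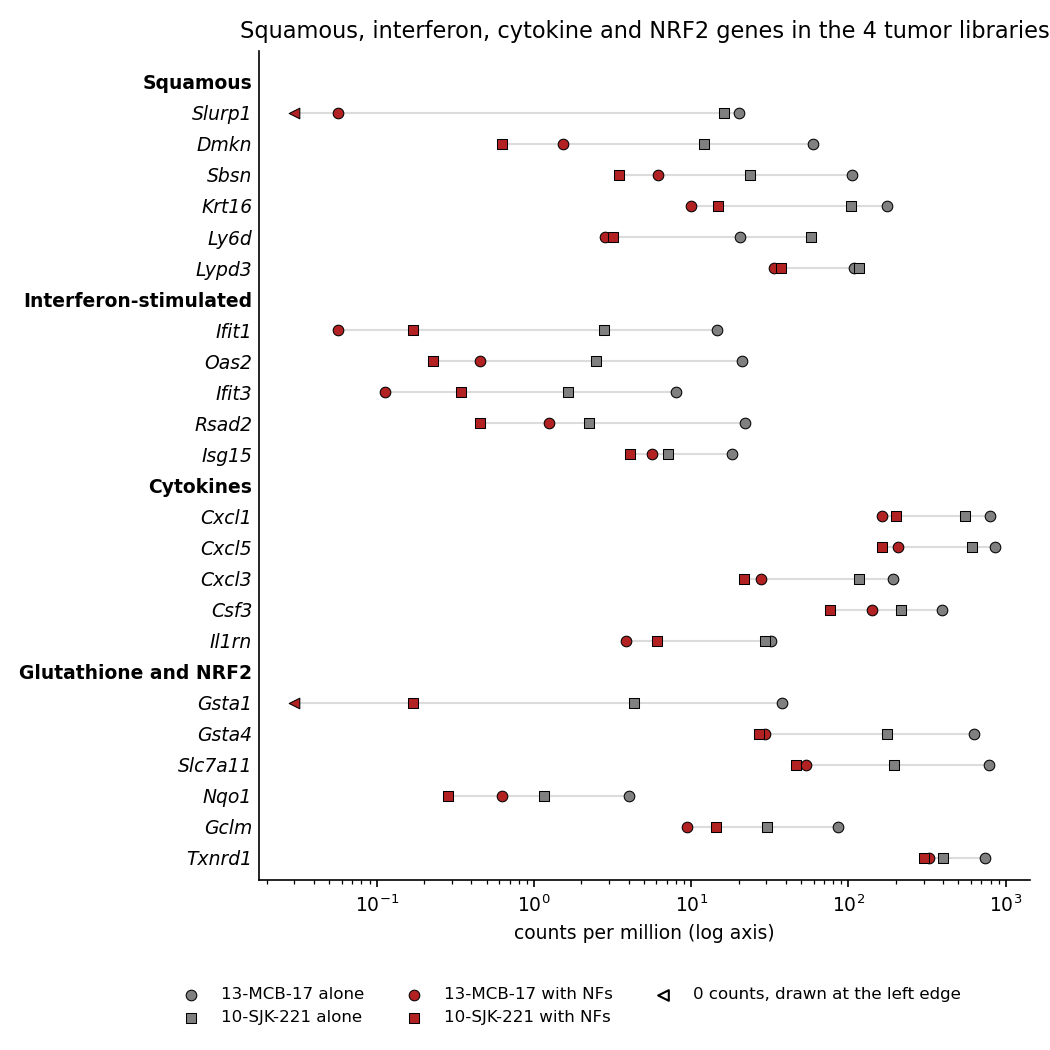
Level of squamous, interferon-stimulated, cytokine and glutathione/NRF2 genes in each tumor library (horizontal axis, CPM, log scale; triangles at the left edge mark 0 counts; each line has 1 library per culture, so no error bars). Red symbols (with NFs) lie left of the gray symbols of the same line (alone) for every gene drawn.

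Signaling lists were mixed. Of 23 TGF-beta and BMP genes tested, 6 were called higher and 6 lower. Pmepa1, a feedback inhibitor induced by TGF-beta, rose from 60.5 and 46.6 CPM to 216 and 300.4 CPM (log2 fold change 2.23, SE 0.19, adjusted p = 0.00019), and the feedback genes Skil and Smad7 were called higher by 1.03 and 0.83 on the log2 scale. Id2, a BMP target, fell from 37.2 and 57.9 CPM to 20.5 and 18.8 CPM (−1.27, SE 0.178, adjusted p = 0.00184). Of 15 YAP-responsive genes, 6 were called higher and 3 lower. Of 17 Wnt and Notch genes, 3 were called higher and 3 lower, among the former the Notch ligand Jag1, which rose from 79.6 and 99.9 CPM to 162 and 245 CPM (1.14, SE 0.112, adjusted p = 0.00038).

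Growth factor receptors were more often higher, with 5 of 16 called higher and 1 lower. Ret, the receptor tyrosine kinase for glial-derived factors, rose from 16.7 and 7.25 CPM to 80.9 and 39.4 CPM (log2 fold change 2.32, SE 0.129, adjusted p = 3.08e-05), and had 167 to 364 CPM in co-cultured NFs against 3.66 and 4.35 CPM in NFs grown without tumor cells. The receptors Egfr, Erbb2 and Met did not pass the test. Of 19 genes of the EGF receptor family, its ligands and feedback, 3 were called lower and 2 higher, while the fit over all 10 libraries called 2 in all. Erbb3 fell from 86.4 and 82.1 CPM to 39.9 and 47.6 CPM (−0.98, SE 0.117, adjusted p = 0.000912), and its ligand gene Nrg1 from 108 and 80.9 CPM to 54.4 and 47.7 CPM (−0.90, SE 0.107, adjusted p = 0.000877), a call that the fit over all 10 libraries did not make (adjusted p = 0.0816).

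Of 37 proliferation genes tested, 14 were called lower and 2 higher, with a median log2 fold change of −0.16. The fit over all 10 libraries called 3 of the 37 in either direction and DESeq2 called 10. The mitotic genes Cdc20, Aurkb, Ccnb1, Plk1 and Aurka were among the 14, and none of these 5 was called in the fit over all 10 libraries (adjusted p = 0.0972, 0.182, 0.169, 0.0869 and 0.0871). Mki67, the Ki-67 antigen, fell from 134 and 205 CPM to 90.9 and 155 CPM (log2 fold change −0.51, SE 0.104, adjusted p = 0.00997, but 0.212 over all 10 libraries), so the libraries of the cultures overlapped although each line fell. The cyclin gene Ccnb1 fell from 61.7 and 85.3 CPM to 37.9 and 58 CPM (−0.65, SE 0.103, adjusted p = 0.00315). Mcm2, a subunit of the replicative helicase, was called higher by 0.54 on the log2 scale, but not by DESeq2 (adjusted p = 0.0811) or over all 10 libraries (0.261), while Mcm3 to Mcm7 and Pcna did not pass the test. Of 19 targets of p53 and cell cycle inhibitors, 11 were called lower and 0 higher, including Mdm2 (−0.61) and Cdkn1a (−0.46). The fit over all 10 libraries called 3 of the 19 and DESeq2 6, and neither Mdm2 (adjusted p = 0.064) nor Cdkn1a (0.131) was called in the former. Immediate early genes were more often higher, with 8 of 20 called higher and 1 lower. Fos rose from 709 and 929 CPM to 1375 and 1799.9 CPM (0.93, SE 0.127, adjusted p = 0.00161).

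Of 23 genes of fatty acid synthesis, 8 were called higher and 0 lower, while DESeq2 and the fit over all 10 libraries each called 5. Fads1, a fatty acid desaturase, rose from 37.3 and 10.9 CPM to 152 and 50.4 CPM (log2 fold change 2.08, SE 0.112, adjusted p = 2.67e-05). Of 24 genes of cholesterol synthesis, 2 were called higher and 3 lower. Of 32 glycolysis and hypoxia genes, 7 were called higher and 1 lower, against 3 in either direction both with DESeq2 and over all 10 libraries. The list's median was 0.67 in 13-MCB-17 and −0.05 in 10-SJK-221, a difference that was not tested for the list. Car9, carbonic anhydrase 9, had 26.1 and 58.5 CPM alone and 78.4 and 70.4 CPM in co-culture (0.89, SE 0.25, adjusted p = 0.0365), and neither DESeq2 (adjusted p = 0.475) nor the fit over all 10 libraries (0.052) nor RLE scaling (0.0659) nor a filter of 1 CPM in 2 libraries (0.051) called it. Of 36 respiratory chain genes, 2 were called lower and 0 higher, and of 29 genes of the unfolded protein and amino acid stress response, 3 were called higher and 1 lower.

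**Figure D5:**
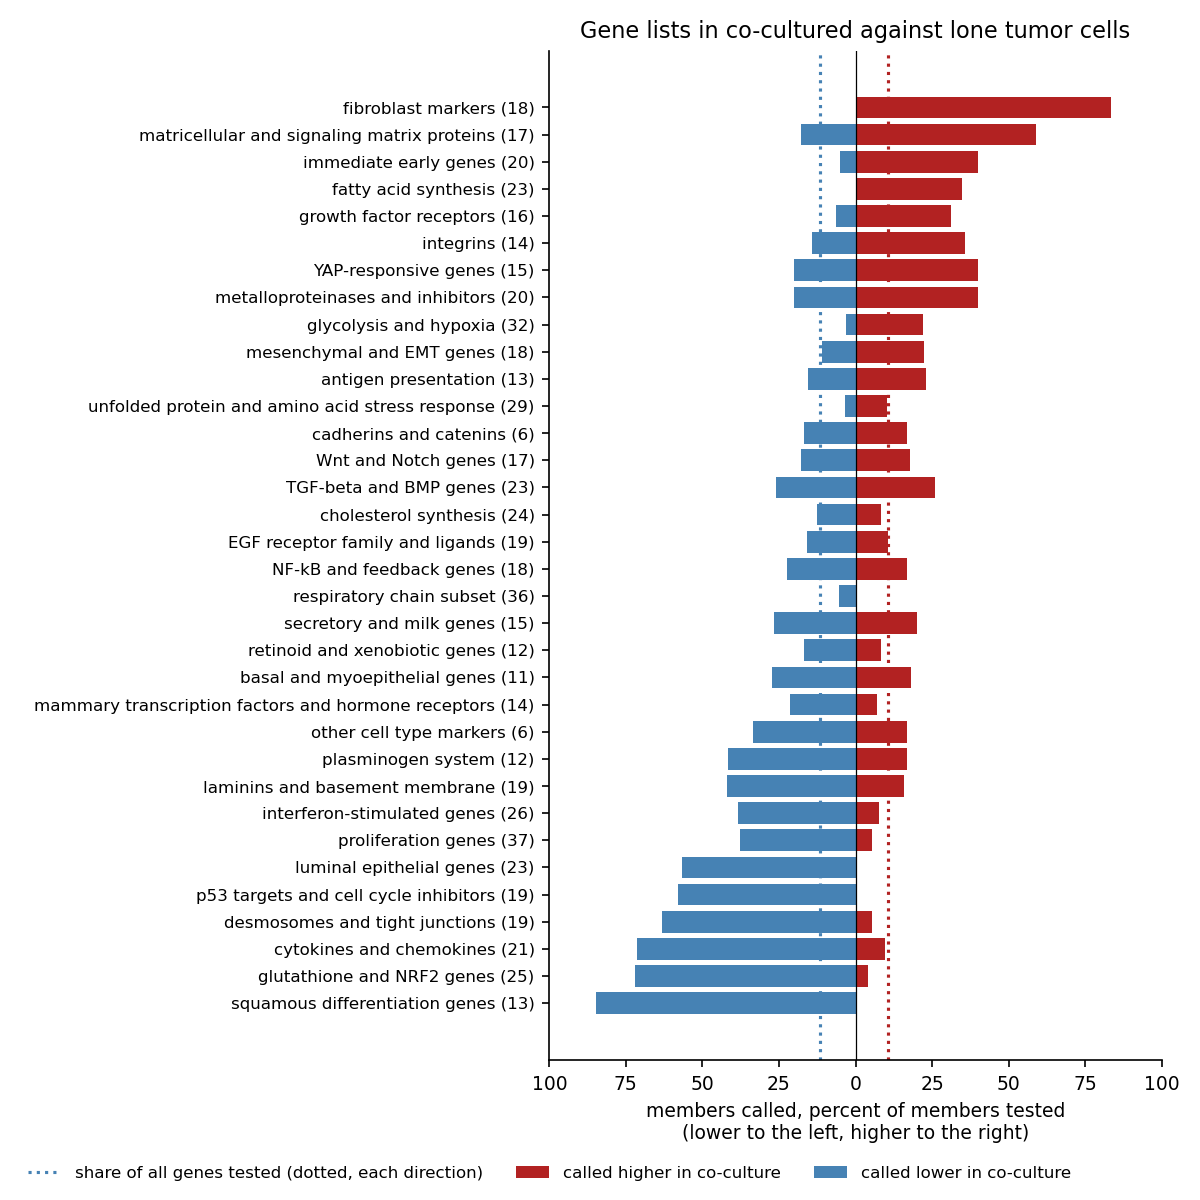
Share of the tested members of 34 gene lists called higher (red, to the right) or lower (blue, to the left) in co-cultured against lone tumor cells, in percent of the members tested, whose number follows each name. Dotted lines mark the shares among all genes tested, 10.8% and 11.5%. The counts include members tested only because 1 culture was high, among them 6 fibroblast, 3 squamous and 5 interferon-stimulated genes.

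Secretory genes changed in both directions, with 3 of 15 called higher and 4 lower (2 and 4 of the 14 that reached the filter in both cultures, which Saa2 did not). Cp, the copper-carrying plasma protein ceruloplasmin, rose from 54.8 and 70.6 CPM to 554 and 354 CPM (log2 fold change 2.81, SE 0.215, adjusted p = 0.00013), against 20.3 to 156 CPM in the NFs of the same gels. Muc4, a membrane mucin, fell from 36.6 and 15.8 CPM to 5.6 and 1.88 CPM (−2.88, SE 0.186, adjusted p = 5.55e-05). Btn1a1, a protein of the milk fat globule, fell from 25.5 and 24.9 CPM to 5.15 and 7.19 CPM (−2.07, SE 0.189, adjusted p = 0.000282). Of 13 antigen presentation genes, 3 were called higher and 2 lower. The class II chaperone gene Cd74 rose from 0.435 and 1.08 CPM to 2.26 and 3.88 CPM (log2 fold change 2.03), without a call in DESeq2 (adjusted p = 0.0764). Cd74 was under the filter in lone 13-MCB-17 cells, so it passed only through co-culture. Of 14 mammary transcription factors and hormone receptors, 1 was called higher and 3 lower, and Esr1 and Pgr did not pass the filter on low counts. Of 11 basal and myoepithelial genes, 2 were called higher and 3 lower (2 and 2 of the 9 that reached the filter in both cultures), of 6 cadherin and catenin genes 1 each, of 12 genes of the plasminogen system 2 and 5, and of 6 tested markers of other cell types 1 and 2 (1 and 1 of the 5 that reached the filter in both cultures, which Kdr did not).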

How the data were processed

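Stranded mRNA libraries were sequenced by the authors. Per the submitters' processing notes the tools included HISAT2 2.2.1 and the build was GRCm38; how reads were counted, by strand or not, and on which annotation is not given in the sources used here. The deposited values were raw read counts per gene (55486 genes with an ID). Genes with overlapping exons or close copies have uncertain counts. No per-sample column was left unused. A row had no gene ID; it was empty in every library and was dropped.

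Counts of the 4 tumor libraries were scaled by TMM, filtered with filterByExpr by culture and fitted in edgeR 4.0.16 (R 4.3.3) with terms for line and culture, using its quasi-likelihood test, and adjusted by Benjamini-Hochberg at 0.05. SE is of the log2 fold change. Line served as the pairing, since each number pair is the same tumor line per the labels (correlation of same-line deviations 0.71). The line difference test used a fit over all 10 libraries, in which the 4 tumor libraries leave no residual spread. Its spread is that of the NF libraries. Scripts were tested on simulated data. Alternatives included DESeq2 1.42.0 and other scalings, filters and libraries. Genes named were the 12 highest rises with an estimate under 20% in both gels, up to 5 rises with an estimate of 50% or more, the 12 lowest falls (adjusted p under 0.05, same direction in both lines, at least 5 CPM), up to 4 called genes per list, and 8 fixed genes; other list members were picked after their values were seen. Members and the 34 lists were chosen with earlier results of these data known. Promoters are RefSeq GRCm38.p6. A further floxed gene of the tumor model is not reported here.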

Additional observations from a re-analysis of the deposited data

Results flagged for a closer look

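Tgfbr3, the TGF-beta co-receptor betaglycan, had fold changes of opposite sign in the tumor lines. It had 28.5 CPM alone and 10.4 CPM in co-culture in 13-MCB-17, and 0.445 and 0.627 CPM in 10-SJK-221, a level too low to show a direction there. The response of 10-SJK-221 minus that of 13-MCB-17 was 1.99 on the log2 scale, and the test of that difference did not pass (edgeR, adjusted p = 1). Over both lines edgeR called Tgfbr3 lower (log2 fold change −1.21, adjusted p = 0.0325), but not with RLE scaling (0.0517), and DESeq2 did not call it (0.329).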

How the results depend on the processing

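Against 2942 calls (1419 higher, 1523 lower), DESeq2 gave 1541 (708 and 833), a fit over all 10 libraries 1723 (859 and 864), and an added log2 fold change above 2 in size 418 (201 and 217). With no replicate block, culture being the only term, 0 genes were called and 2207 had an unadjusted p under 0.05. Leaving out 1 tumor library from that fit over 10 libraries, whose own count is 1723, gave 269 to 848 calls, 152 to 421 higher and 115 to 428 lower; the lone library of a line then adds nothing to the culture effect. Without the 13-MCB-17 libraries of gel 2 or 4 there were 269 and 274 calls, and without the 10-SJK-221 libraries of gel 3 or 5 there were 834 and 848. Of 1541 DESeq2 calls, 1527 were among the 2942. Other scalings and filters, and subtracting the estimated fibroblast RNA, stayed within 1.5 times. Tgfbr3 reversed to 0.47 and 0.48 without gel 2 and gel 4 (range over the libraries left out −1.50 to 0.48). The median of the other cell type markers reversed to −0.18 with DESeq2 and −0.29 with a filter of 1 count, and that of secretory genes to −0.19, −0.23, −0.06 and −0.05 under these settings and without gels 2 and 4 (range −0.06 to 0.09). Of 148 genes named by rule, 26 lost their call with DESeq2 and 20 over all 10 libraries. In those fits and in the fits without 1 library, Tgfbr3 alone changed direction. Counts of list members called moved by over 1.5 times in the fit over all 10 libraries for proliferation (16 to 3), p53 targets (11 to 3), YAP-responsive genes (9 to 5), glycolysis and hypoxia (8 to 3), fatty acid synthesis (8 to 5), the EGF receptor family (5 to 2), cholesterol synthesis (5 to 2), basal genes (5 to 3), mammary transcription factors (4 to 1), the unfolded protein response (4 to 2) and the respiratory chain (2 to 1). With DESeq2 they moved for proliferation (10), p53 targets (6), glycolysis and hypoxia (3), fatty acid (5) and cholesterol synthesis (3), basal genes (3), the respiratory chain (1), NF-kB genes (7 to 4), the plasminogen system (7 to 4) and antigen presentation (5 to 2). Depth limits genes at a few counts.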

Other observations

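Of the 12 lowest genes under the naming rule, Oas3 and Klk6 are on none of the 34 lists. Oas3, a relative of Oas2, had 46.4 and 10.3 CPM alone and 0.735 and 0.627 CPM in co-culture (log2 fold change −5.26, SE 0.369, edgeR adjusted p = 8.71e-05). Klk6, a secreted serine protease, had 1.52 and 9.93 CPM alone and 0.0566 and 0.342 CPM in co-culture, and was tested only because it was high in lone cells.

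For several genes the level in the fibroblasts of the same gels stood opposite to that in the tumor cells. Gsta2 had 53.6 and 7.38 CPM in lone tumor cells and 2 counts in each co-cultured tumor library, while NFs had 0 and 0.561 CPM without tumor cells and 13.6 to 25.2 CPM with them. Slc7a11 had 101 to 144 CPM in co-cultured NFs against 19.2 and 15 CPM in NFs without tumor cells, and was lower in co-cultured than in lone tumor cells in both lines. Only 1 gel held NFs without tumor cells, so this difference among NFs was not tested here.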
